A study of Mus musculus with 12 samples.

Results

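The genes described are the aryl hydrocarbon receptor pathway of mouse 3T3-L1 cells: the receptor gene Ahr, its partner Arnt, its repressor Ahrr, and the target genes Cyp1a1, Cyp1b1 and Tiparp. They were taken by name from the table of raw gene counts, which held all 6 among 54532 genes. After the low-count filter 4 of the 6 could be tested, among 14855 genes in all; Ahrr and Cyp1a1 had too few reads. 3T3-L1 is an established line of mouse embryo fibroblasts that can be made to differentiate into lipid-laden fat cells by a mix of hormones. RNA of 12 libraries, 3 in each of 4 groups, was sequenced on day 6. The groups were wild-type cells given the cocktail with luteolin, cells given it with quercetin, cells given the cocktail alone (DMI), and untreated cells. DMI stands for dexamethasone (1 µM), IBMX (0.5 mM) and insulin (10 µg/ml), given until day 2 and followed by insulin. The labels carry one and the same treatment text on every sample, so the untreated group rests on its own treatment label, and they give neither doses nor exposure times of the flavonoids. Whether the replicates were separate cultures is not stated, so the p-values reflect only how much these libraries vary.

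The aryl hydrocarbon receptor is a transcription factor of the bHLH-PAS family that waits in the cytosol in a complex with the chaperone Hsp90 and moves to the nucleus when it binds a ligand, such as dioxin, a tryptophan metabolite or a plant flavonoid. There it pairs with ARNT and binds xenobiotic response elements, which share the core GCGTG, near genes of drug metabolism. Its targets include its own brakes: AHRR competes with it for ARNT, and TIPARP attaches ADP-ribose to it and shortens its action. In fibroblast lines and preadipocytes the receptor is known for driving CYP1B1, and its activation by dioxin is known to restrain fat cell formation.

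The core was looked for in the RefSeq promoters of the GRCm38.p6 assembly, 250 bases before to 50 bases after each start, on both strands; 5 of the 6 genes had an entry, and Ahr is named only. All 5 held at least 1 core, as did 32.4% of all 32851 promoters. The longer form TNGCGTG, which contains the core, stood in 5.07% of all promoters and, of the 5, in that of Ahrr alone. The upstream bases of Cyp1b1, the most abundant of the 6 transcripts in these cells, and of its sister gene Cyp1a1, which was at or near 0, are printed together because each holds a single core at a like distance from the start, 76 bases before it in Cyp1b1 and 54 bases before it in Cyp1a1. They come from chr17:79715062-79715311 (minus strand) and chr9:57697363-57697612 (plus strand), run 5′ to 3′ on the gene's strand, and carry the core in capitals (CACGC is GCGTG read on the other strand).
Cyp1b1 upstream: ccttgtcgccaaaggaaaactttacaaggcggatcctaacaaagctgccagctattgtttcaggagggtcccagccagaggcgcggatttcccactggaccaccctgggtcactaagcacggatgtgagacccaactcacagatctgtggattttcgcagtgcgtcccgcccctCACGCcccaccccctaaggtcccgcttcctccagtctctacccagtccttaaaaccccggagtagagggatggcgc
Cyp1a1 upstream: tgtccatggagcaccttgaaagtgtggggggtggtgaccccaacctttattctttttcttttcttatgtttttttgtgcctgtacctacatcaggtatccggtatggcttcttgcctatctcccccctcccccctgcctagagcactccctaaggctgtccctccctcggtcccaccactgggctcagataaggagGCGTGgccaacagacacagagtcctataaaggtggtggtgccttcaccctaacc
Shorter windows show the core in the other 3 promoters: Tiparp at chr3:65528264-65528294 (plus strand), 170 bases before the start; Arnt at chr3:95434348-95434378 (plus strand), 29 before; and, of the 3 cores of Ahrr, the one in the longer form, at chr13:74292341-74292371 (minus strand), 27 before.
Tiparp core: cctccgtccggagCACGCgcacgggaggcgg
Arnt core: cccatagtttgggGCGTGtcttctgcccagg
Ahrr core: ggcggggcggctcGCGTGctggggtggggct
A match describes letters in these windows and says nothing of whether the receptor bound there.

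Library totals ran from 14522182 to 19436796 counts. Levels are CPM, the gene's count relative to the library total adjusted by TMM, a scaling for composition; to compare genes with each other they are divided by gene length. Fold changes and adjusted p-values come from edgeR's quasi-likelihood test over all 12 libraries, with Benjamini-Hochberg adjustment over all 14855 genes and 0.05 as the threshold. Marker genes mostly followed the group labels: all 7 adipocyte markers (Fabp4, Adipoq, Plin1, Pparg, Cebpa, Lpl, Cidec) rose with DMI. The summed level of 5 preadipocyte and fibroblast markers (Dlk1, Pdgfra, Pdgfrb, Thy1, Col1a1) was lower in every induced library. Most of that sum in untreated cells came from Col1a1 (16155 CPM) and Dlk1 (6775 CPM). Of the 5, 4 fell with DMI, but Pdgfra did not (635 CPM in DMI and 590 CPM in untreated cells). Markers of macrophages and endothelial, epithelial and muscle cells were near 0: macrophage markers summed to at most 1.44 CPM, and Adgre1, which defines that cell type, had no count in any library. Library 3 stood apart in each induced group. Its adipocyte marker sum was 5347 CPM in luteolin against 11149 and 12465 CPM in the other 2 luteolin libraries, 2988 CPM in quercetin against 6515 and 6324 CPM, and 5687 CPM in DMI against 17898 and 20292 CPM. In these bulk libraries, fewer cells of a type and less RNA per cell cannot be told apart. Results of the 4 tested genes are therefore given with and without library 3 of the induced groups where they differ. Those of the gene lists are given with library 3 unless its removal is named. Over all 12 libraries no adipocyte marker passed for either flavonoid against DMI. Without library 3 of the induced groups, 4 of the 7 were lower with luteolin and all 7 with quercetin. Mitochondrial genes took 2.87% to 4.73% of counts in induced libraries and 1.85% to 1.91% in untreated ones; the part of that in the differences below was not tested.

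None of the 4 tested genes passed the threshold in any of the 4 comparisons. The share of all tested genes that passed was 27.1% for DMI against untreated cells, 0.0202% for luteolin with DMI against DMI, 1.01% for quercetin with DMI against DMI, and 0% (0 genes) between the flavonoids. At an unadjusted p under 0.05, 1 of the 4 differed between DMI and untreated cells (Tiparp), where 39.1% of all tested genes did, and none in the other 3 comparisons, where 6.09% (luteolin against DMI), 21.3% (quercetin against DMI) and 8.93% (between the flavonoids) did. DESeq2, another count method, called Tiparp for DMI against untreated cells, with 29.8% of all tested genes, and none of the 4 in the other 3, where it called 0.323%, 6.62% and 0.0202% of all tested genes, in the same order. With the replicate number as a block, 25 genes in place of 3 passed for luteolin against DMI, none of them among the 4. Per kilobase of gene, Cyp1b1 was the highest and Ahr the lowest of the 4 in every group. Cyp1b1 led with 66.6 CPM per kilobase in luteolin, 74.7 in quercetin, 59.5 in DMI and 65.0 in untreated cells. Tiparp (14.9, 18.2 and 16.8 in the induced groups, in the same order, and 12.4 in untreated cells) and Arnt (13.4, 14.0, 13.3 and 15.0) lay close together. Within a library the ratio of Tiparp to Arnt per kilobase ran from 1.00 to 1.20 with luteolin, from 1.09 to 1.40 with quercetin and from 1.00 to 1.44 with DMI alone, against 0.742 to 0.942 in untreated cells. Per kilobase, Tiparp was thus above Arnt in all 9 induced libraries, by very little in 1 luteolin and 1 DMI library. It was below Arnt in all 3 untreated ones. Whether a ratio lies above or below 1 depends on the gene lengths used. The share of all pairs of tested genes that separate the libraries in this way was not computed, so such a separation may be common. Ahr was far below Tiparp and Arnt, at 0.709, 0.876, 0.598 and 1.08 CPM per kilobase.

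**Figure D1:**
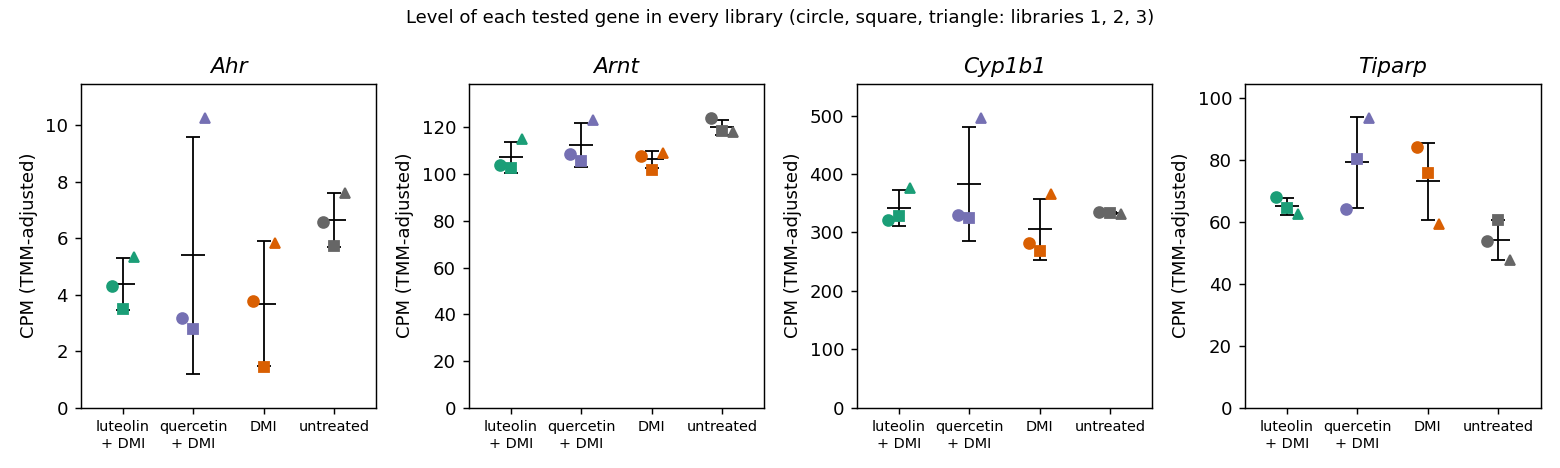
Level of Ahr, Arnt, Cyp1b1 and Tiparp in CPM (vertical axes) in the 12 libraries, by group (horizontal axes); circles, squares and triangles are libraries 1, 2 and 3, and bars give the mean and SD of 3. The triangles, library 3, are the highest of each induced group for Ahr, Arnt and Cyp1b1, and Cyp1b1 reaches 495 CPM in quercetin.

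Ahr, the receptor itself (ENSMUSG00000019256, chr12:35497974-35535038, minus strand), was a low transcript throughout. It had 4.31, 3.48 and 5.32 CPM in the luteolin libraries, 3.17, 2.78 and 10.2 CPM in the quercetin libraries, 3.78, 1.44 and 5.85 CPM in the DMI libraries, and 6.59, 5.73 and 7.61 CPM in untreated cells. All 3 luteolin libraries and 2 of the 3 quercetin libraries lay below every untreated library, but quercetin library 3 was the highest of all 12, and DMI library 3 lay within the untreated range. The share of all tested genes placed in this way was not computed. DMI cells averaged 3.69 ± 2.21 CPM and untreated cells 6.64 ± 0.945 CPM (SD, n = 3 each), which is -0.84 log2 units (95% interval -1.94 to 0.26, adjusted p = 0.241). Without library 3 of each induced group the same difference was -1.29 with an adjusted p of 0.00275, so those libraries decide the call. Against DMI, Ahr differed by 0.24 log2 units with luteolin (95% interval -0.88 to 1.35, adjusted p = 0.998) and by 0.53 with quercetin (-0.57 to 1.63, adjusted p = 0.572). Without quercetin library 3, the quercetin difference was -0.31.

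Arnt, the shared partner of the receptor and of the hypoxia factors (ENSMUSG00000015522, chr3:95434388-95497240, plus strand), hardly varied. It had 104, 103 and 115 CPM with luteolin, 108.5, 105.5 and 123 CPM with quercetin, 108, 102 and 109 CPM with DMI alone, and 124, 118 and 118 CPM in untreated cells. Every DMI library lay below every untreated library; of the 4 tested genes Arnt was the only one without overlap there, against 52.1% of all tested genes. DMI cells averaged 106 ± 3.81 CPM and untreated cells 120 ± 3.24 CPM (SD, n = 3 each), a log2 fold change of -0.18 (95% interval -0.41 to 0.05, adjusted p = 0.238). Against DMI, Arnt differed by 0.01 with luteolin (95% interval -0.22 to 0.24) and by 0.08 with quercetin (-0.15 to 0.31), with adjusted p-values of 0.998 and 0.695. A change of Arnt by more than 0.31 log2 units in either flavonoid lies outside these intervals. The ratio of Arnt to Ahr had a median of 18.6 in luteolin libraries, 26.4 in quercetin, 22.0 in DMI and 14.5 in untreated libraries, on CPM per kilobase.

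Ahrr, the repressor (ENSMUSG00000021575, chr13:74211118-74292331, minus strand), and Cyp1a1, the classical inducible monooxygenase of this pathway (ENSMUSG00000032315, chr9:57687928-57703824, plus strand), were not detectable as group levels at this depth. Ahrr had 0 counts in all 3 luteolin libraries, 1 count in quercetin library 1, 3 counts and 1 count in DMI libraries 1 and 2, and 0 counts in untreated cells. Cyp1a1 had 5 counts in luteolin library 1 (95% exact Poisson interval 1.62 to 11.7) and 0 in the other 11 libraries. A count of 0 allows up to 3 counts, which is 0.152 to 0.206 CPM depending on the library, and intervals and floors cover counting error only. The reads of Cyp1a1 therefore sit in 1 of 3 luteolin libraries, and no difference between groups can be drawn from them.

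Cyp1b1 (ENSMUSG00000024087, chr17:79706953-79715041, minus strand), which oxidises steroids, retinoids and polycyclic hydrocarbons, was abundant with and without induction. It had 321, 328 and 376 CPM with luteolin, 329, 324 and 495 CPM with quercetin, 282, 268 and 366 CPM with DMI alone, and 335, 333 and 332 CPM in untreated cells. Within each induced group library 3 was the highest, and the other 6 induced libraries all lay below every untreated library. With luteolin and quercetin they lay only slightly below, at 321 to 329 CPM against 332 to 335 CPM. How many of all tested genes separate in this way was not computed. DMI cells averaged 305 ± 52.7 CPM and untreated cells 334 ± 1.72 CPM (SD, n = 3 each), a log2 fold change of -0.13 (95% interval -0.51 to 0.25, adjusted p = 0.631). Luteolin cells averaged 342 ± 30.3 CPM, 0.16 log2 units above DMI (95% interval -0.22 to 0.54, adjusted p = 0.995). Quercetin cells averaged 383 ± 97.3 CPM, 0.33 above DMI (95% interval -0.05 to 0.71, adjusted p = 0.306). With either flavonoid the libraries overlapped those of DMI alone, through DMI library 3. Between libraries of the same number, Cyp1b1 was higher with luteolin than with DMI in 3 of 3, and likewise with quercetin in 3 of 3. The share of all tested genes ordered in this way was not computed, and the labels do not say what a number marks. With the replicate number as a block the luteolin difference was 0.17 (adjusted p = 0.857). Without library 3 of the induced groups Cyp1b1 passed in 3 comparisons: 0.26 log2 units higher with luteolin than with DMI (SE 0.077, adjusted p = 0.0452), 0.28 higher with quercetin than with DMI (SE 0.077, adjusted p = 0.0134), and lower in DMI than in untreated cells (log2 fold change -0.24, adjusted p = 0.0112). Under that setting 1566, 5049 and 7970 of 15106 genes passed in those 3 comparisons, so a call is common there. It keeps only libraries 1 and 2 of each induced group. The left-out libraries stood apart by their adipocyte marker sums, with which Cyp1b1 itself was correlated, so these p-values are a description only.

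Tiparp (ENSMUSG00000034640, chr3:65528410-65555518, plus strand), the ADP-ribosyltransferase that curbs the receptor, was the only one of the 4 with an unadjusted p under 0.05. It had 68.1, 64.6 and 62.6 CPM with luteolin, 64.2, 80.4 and 93.5 CPM with quercetin, 84.2, 75.7 and 59.5 CPM with DMI alone, and 54.0, 60.7 and 47.7 CPM in untreated cells. All luteolin and all quercetin libraries lay above every untreated library, and 2 of 3 DMI libraries did. Between DMI and untreated cells 52.1% of all tested genes were free of overlap. For either flavonoid against untreated cells that share was not computed, so the position of Tiparp may be common. DMI cells averaged 73.1 ± 12.6 CPM and untreated cells 54.1 ± 6.53 CPM (SD, n = 3 each), a 1.35-fold difference (log2 fold change 0.43, SE 0.16, 95% interval 0.08 to 0.79). By edgeR's quasi-likelihood test its adjusted p was 0.0662, above the threshold. It passed in 10 of 20 alternative fits, among them DESeq2 (adjusted p = 0.0309) and the fit without DMI library 3 (log2 fold change 0.56, adjusted p = 0.0150), and all 20 gave the same direction. In the authors' deposited table the log2 fold change of Tiparp for this comparison is 0.48 with an adjusted p of 0.0274, and no other of the 6 genes has an adjusted p under 0.05 in any of the 4 comparisons. Tiparp differed from DMI by -0.17 log2 units with luteolin (95% interval -0.52 to 0.18, adjusted p = 0.990) and by 0.12 with quercetin (-0.23 to 0.47, adjusted p = 0.708). A transcribed pseudogene on the opposite strand, 4931440P22Rik, shares 970 bases with Tiparp, and the library kit leaves strand unmarked. Counts of 4931440P22Rik reached at most 52 in a library, which does not bound the reads that Tiparp may have lost or gained there. Arnt shares 352 bases with a pseudogene on its own strand, Gm42672, whose counts reached at most 18 in a library.

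**Figure D2:**
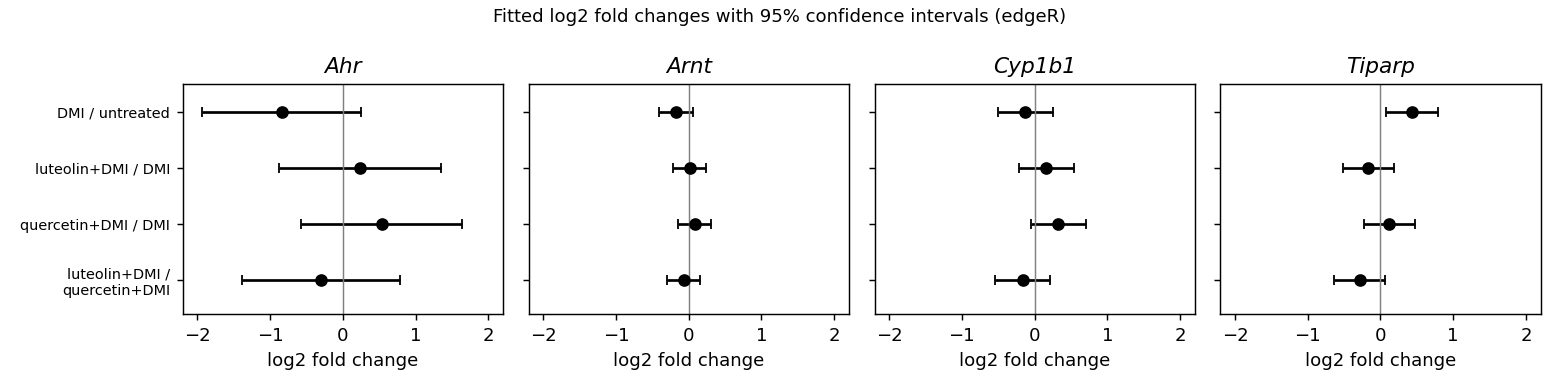
Log2 fold change (horizontal axis) of Ahr, Arnt, Cyp1b1 and Tiparp in each of the 4 comparisons, with 95% intervals from edgeR's fit over 12 libraries; a point right of 0 is higher in the group named first. The interval of Tiparp for DMI against untreated cells, 0.08 to 0.79, leaves out 0 before adjustment, and no point passed after it.

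Luteolin and quercetin share a flavonoid skeleton, and quercetin carries a hydroxyl on its central ring that luteolin lacks. As neither dose nor exposure time is given, the 2 compounds are not known to be at matched doses; 1 pair was compared, across all genes at once. With luteolin Ahr was at -0.30 log2 units relative to quercetin (95% interval -1.39 to 0.79, adjusted p = 0.846), and Arnt was at -0.07 (-0.30 to 0.16, adjusted p = 0.831). Cyp1b1 was at -0.17 (-0.55 to 0.22, adjusted p = 0.744) and Tiparp at -0.29 (-0.64 to 0.07, adjusted p = 0.578). The libraries of the compounds overlapped for all 4 genes, where 10.3% of all tested genes did not overlap. These intervals leave room for a Cyp1b1 difference of up to 0.55 log2 units in favour of quercetin, so they do not show that the compounds act alike. The 2 comparisons with DMI share the DMI libraries. By edgeR no gene of the whole table passed between the compounds, with 1327 under an unadjusted p of 0.05 and 3 called by DESeq2.

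Across the 9 induced libraries Ahr, Arnt and Cyp1b1 were high where adipocyte markers were low, but the relation was weaker without library 3 of each group. On the log2 scale, the summed CPM of the 7 adipocyte markers correlated with Cyp1b1 at Pearson r = -0.916 (exact permutation p = 5.51e-05, 0.000551 after Benjamini-Hochberg adjustment over 10 relations; Spearman rho = -0.917, exact permutation p = 0.00131, adjusted 0.0131; n = 9). For Arnt r was -0.811 (exact permutation p = 0.00551, adjusted 0.011; rho = -0.867, adjusted 0.0202). For Ahr r was -0.763 (exact permutation p = 0.0147, adjusted 0.0245), but rho, -0.7, missed the threshold after adjustment (0.0722). For Tiparp r was -0.0412 (exact permutation p = 0.916; rho = 0.167, exact permutation p = 0.678). The permutations treat the 9 libraries as interchangeable. They come from different treatment groups, and library 3 had a low marker sum in each, so the permutation p-values here and below are a description only. After leaving out DMI libraries 1 and 2, the farthest from the median of the marker sum, r was -0.85 for Cyp1b1, -0.922 for Arnt, -0.706 for Ahr and -0.546 for Tiparp.

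In the 6 induced libraries without library 3 of each group, r was -0.837 for Cyp1b1 (exact permutation p = 0.0736), -0.451 for Arnt (exact permutation p = 0.338), -0.284 for Ahr (exact permutation p = 0.65) and 0.319 for Tiparp (exact permutation p = 0.474). Without library 3 the relations of Arnt and Ahr were thus much weaker, and none of these passed the threshold. With 6 libraries over a narrower range of marker sums, a missed threshold cannot show that no relation remains. On deviations from the group means over all 9 libraries, which largely set library 3 against libraries 1 and 2, r was -0.903 for Cyp1b1, -0.792 for Arnt and -0.826 for Ahr. Without quercetin library 3, which had the lowest marker sum and the highest Ahr, Cyp1b1 and Tiparp of the 9, r over 8 libraries was -0.9 for Cyp1b1, -0.677 for Arnt, -0.592 for Ahr and 0.58 for Tiparp, so the value near 0 of Tiparp depends on single libraries. Many genes did the same: 3.35% of all tested genes had an r at least as negative as that of Cyp1b1, 9.17% as that of Arnt and 11.8% as that of Ahr. For Cyp1b1 the untreated libraries did not follow the line, since with marker sums of only 721 to 744 CPM their Cyp1b1 lay at 332 to 335 CPM, below that of quercetin library 3. Their Arnt, at 118 to 124 CPM, was above that of every induced library except quercetin library 3. Their Ahr, at 5.73 to 7.61 CPM, was above that of every induced library except quercetin library 3 and DMI library 3. Whether these values lie on the same line was not tested. The share of mitochondrial counts was lower in library 3 than in libraries 1 and 2 with luteolin (2.91% against 4.41% and 4.73%) and with DMI (2.87% against 4.72% and 4.28%), but higher with quercetin (4.65% against 3.29% and 3.92%), and its part in the relation was not tested.

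**Figure D3:**
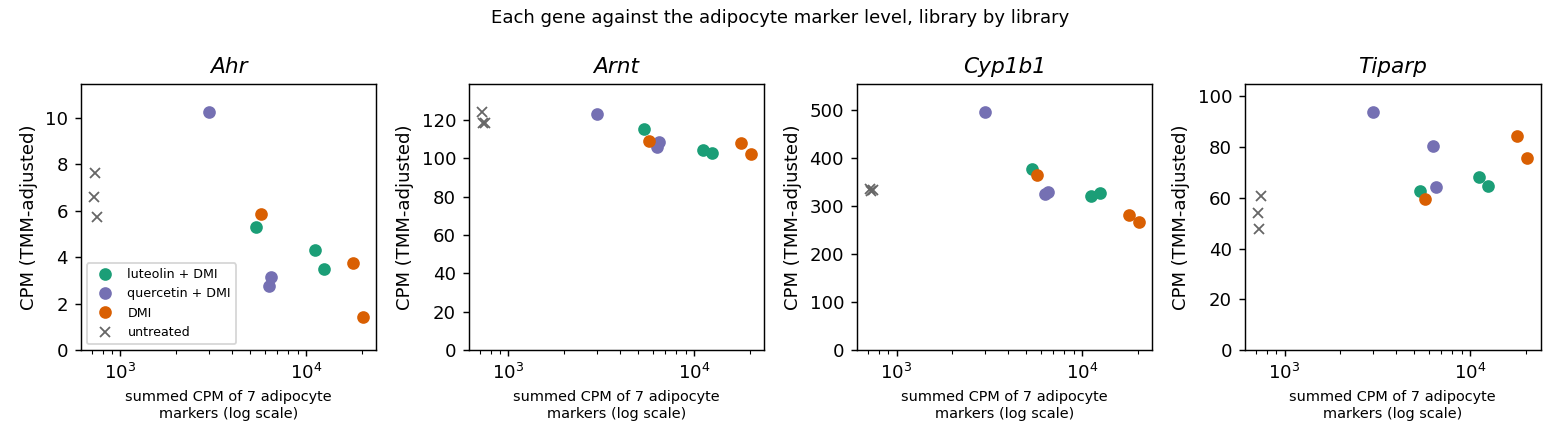
Level of Ahr, Arnt, Cyp1b1 and Tiparp in CPM (vertical axes) against the summed CPM of 7 adipocyte markers (horizontal axis, log scale) in the 12 libraries, coloured by group. Among the 9 induced libraries Cyp1b1 is lower where the marker sum is higher (r = -0.916 over 9, -0.837 without library 3 of each group); the untreated libraries lie at the far left.

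The 3 genes also moved with each other over the 9 induced libraries, again less closely without library 3. Ahr and Cyp1b1 had r = 0.903 (exact permutation p = 0.00153, adjusted 0.00765), which was 0.608 without quercetin library 3 and DMI library 2, the farthest on Ahr. Arnt and Cyp1b1 had r = 0.881, which was 0.48 without quercetin library 3 and luteolin library 3, and Ahr and Arnt had r = 0.851, which was 0.552 without quercetin library 3 and DMI library 2. Without library 3 of each induced group they were 0.591, 0.227 and 0.435, with exact permutation p-values of 0.212, 0.64 and 0.432. All 3 were thus weaker and missed the threshold, but 6 libraries are too few to show whether a relation remains without library 3. Cyp1b1 and Tiparp had r = 0.158 (exact permutation p = 0.695), which was -0.815 without quercetin library 3 and DMI library 2.

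The protein-coding genes most like each of the 4 over the 12 libraries are given as a description, by Pearson correlation of log2 CPM among 10196 genes with a mean of at least 5 CPM. For Ahr they were Kif15 (0.95), Zfpm2 (0.944) and Rbpj (0.934), and for Arnt they were Cklf (0.977), Btg3 (0.96) and Vezf1 (0.952). For Cyp1b1 they included Gxylt1 (0.974) and Ulbp1 (0.941), and for Tiparp they were Vps4b (0.957), Zfp617 (0.95) and Stx12 (0.932). No gene was named for more than 1 member.

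Around these 6 genes, 72 genes in 7 lists were looked at, of which 58 could be tested. The lists cover other targets, the cytosolic complex, related factors, coregulators and ligand synthesis. They also cover the enzymes that feed or follow a P450, and enzymes and hydrolases of ADP-ribosylation. For DMI against untreated cells 26 of the 58 passed (14 rose and 12 fell, 44.8% in all); of all tested genes 14.7% rose and 12.4% fell. The count of 26 was 16 without untreated library 3, DMI library 1 or DMI library 2, and 17 without untreated library 1. None of the 58 passed in the other 3 comparisons by edgeR over all 12 libraries. Some passed in each of these without library 3 of the induced groups. At an unadjusted p under 0.05 there were 7 with luteolin and 18 with quercetin against DMI, and 3 between the compounds, beside 6.09%, 21.3% and 8.93% of all tested genes, in that order. DESeq2 called 0, 11 and 0 of the 58, beside 0.323%, 6.62% and 0.0202% of all tested genes. In what follows, calls named as held passed in all 20 alternative fits.

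Of the 8 tested other target genes, 1 rose and 1 fell with DMI (median log2 fold change 0.13, against -0.04 over all tested genes). Slc7a5, which imports large amino acids such as tryptophan, fell to 125 ± 43.9 CPM in DMI cells, against 382 ± 17.6 CPM in untreated cells (SD, n = 3 each; log2 fold change -1.61, adjusted p = 0.00136, held). Ugt1a6a, a glucuronosyltransferase, rose to 2.90 ± 1.49 CPM in DMI cells, against 0.788 ± 0.0906 CPM in untreated cells (log2 fold change 1.86, adjusted p = 0.00447, held); it shares exons with its Ugt1a neighbours, so its count is uncertain. Against DMI it was at -0.60 log2 units with luteolin (adjusted p = 0.908) and -0.99 with quercetin (adjusted p = 0.146), neither past the threshold. Nfe2l2, which encodes the antioxidant factor NRF2, averaged 91.7 CPM with luteolin, 103 CPM with quercetin and 96.0 CPM with DMI. Nqo1 and Ereg are named because of their values. Nqo1, a quinone reductase that NRF2 also controls, had 18.9, 18.6 and 26.7 CPM with luteolin, 21.7, 22.9 and 20.0 CPM with quercetin, and 14.1, 14.9 and 13.7 CPM with DMI alone. Ereg, which encodes the growth factor epiregulin, had 3.73, 3.54 and 7.45 CPM with luteolin, 5.29, 5.00 and 9.76 CPM with quercetin, and 1.95, 1.85 and 2.59 CPM with DMI alone. For both genes every library of either flavonoid lay above every DMI library, as 11.5% (luteolin) and 14% (quercetin) of all tested genes were free of overlap in either direction. Neither passed by edgeR over all 12 libraries with luteolin (Nqo1 log2 fold change 0.59, adjusted p = 0.490; Ereg 1.19, adjusted p = 0.554) or quercetin (Nqo1 0.60, adjusted p = 0.0803; Ereg 1.64, adjusted p = 0.0506), and DESeq2 called both with quercetin (adjusted p = 0.0239 and 0.00145). Without library 3 of the induced groups, where calls were common, edgeR called 1 of the 8 target genes higher with luteolin than with DMI. With quercetin it called 4 higher and 1 lower.

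Of the 5 genes of the cytosolic complex, 2 fell with DMI and none rose (median -0.32). Hsp90ab1, the constitutive form of the chaperone, was at 1711 ± 226.8 CPM in DMI cells and 2414 ± 123 CPM in untreated cells (SD, n = 3 each; log2 fold change -0.50, adjusted p = 0.0166). Src, a kinase carried in the complex, was at 50.2 ± 11.8 CPM in DMI cells and 76.5 ± 2.68 CPM in untreated cells (-0.61, adjusted p = 0.0232). Both calls were lost without untreated library 1, untreated library 3, DMI library 1 or DMI library 2, with adjusted p-values of up to 0.114, and that of Src also without untreated library 2. Over all 20 alternatives the call of Hsp90ab1 was lost in 6 and that of Src in 5.

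Among 10 tested partners and paralogs of the bHLH-PAS family, 3 rose and 2 fell with DMI (median 0.20). Epas1, which encodes the hypoxia factor HIF-2α and takes the same partner ARNT, had 101 ± 47.0 CPM in DMI cells and 10.2 ± 1.22 CPM in untreated cells (9.89-fold higher, adjusted p = 0.000264, held). Npas2, a clock gene, had 77 counts in DMI cells and 0 in untreated cells, at least 27.1-fold higher when the untreated sum is set to 3 counts (adjusted p = 0.000634, held). Hif3a had 100 counts in DMI cells and 2 in untreated cells, a ratio of 52.9 (95% exact interval 14.3 to 442, which covers counting error only). By edgeR, which takes in the spread between libraries, it was 45.2-fold higher (95% interval 15.2 to 134, adjusted p = 0.000408, held). Npas3, a neuronal factor, fell by 1.39 log2 units (adjusted p = 0.00822, held), and Npas1 fell too but lost its call in 10 of 20 alternatives.

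Of the 10 coregulators that the receptor can recruit, 3 rose and 2 fell (median -0.07). Nrip1, a corepressor of nuclear receptors in fat cells, was 6.08-fold higher in DMI than in untreated cells (145 ± 72.5 and 23.9 ± 2.10 CPM, SD, n = 3 each; adjusted p = 0.00112, held). The coactivator Ncoa1 was 1.70-fold higher (adjusted p = 0.00820, held). Rb1, the retinoblastoma gene, was 1.77-fold higher (adjusted p = 0.0332), a call lost without any 1 of untreated libraries 1 to 3 or DMI libraries 1 and 2. Ncoa3 fell (log2 fold change -0.68, adjusted p = 0.0100), a call lost without DMI library 2 (adjusted p = 0.0575). Of the 4 tested genes that turn tryptophan into kynurenine-type ligands, Kyat3, a kynurenine aminotransferase, rose 2.45-fold (adjusted p = 0.00480, held), and none fell (median 0.26). Ido1, the inducible first enzyme of that route, had 0 counts in all libraries.

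The enzymes that supply electrons to P450s or conjugate flavonoids were the list with the largest median difference of the 7, 0.94 log2 units: 5 of 9 rose with DMI and none fell. Por, the reductase that every microsomal P450 needs, was at 297.5 ± 114 CPM in DMI cells and 79.3 ± 1.85 CPM in untreated cells (3.75-fold, adjusted p = 0.00188, held). Sult1a1, a phenol sulfotransferase, was at 40.1 ± 23.9 CPM in DMI cells and 2.09 ± 0.358 CPM in untreated cells (19.1-fold, adjusted p = 0.000457, held). The electron carriers Cyb5a and Cyb5b were 3.59-fold and 1.92-fold higher (adjusted p = 0.00107 and 0.00840, held). With quercetin, Por had 188, 176 and 81.7 CPM against 325, 395 and 173 CPM in DMI cells. Over all 12 libraries DESeq2 but not edgeR called it lower. DESeq2 called 4.91% of all tested genes lower there, and edgeR 0.848%. Without library 3 of the induced groups, edgeR called 4 genes of this list lower and 2 higher with quercetin than with DMI. So over all 12 libraries Cyp1b1, a P450, did not pass in any comparison, while its electron donor Por did for DMI against untreated cells. The difference between these 2 changes was not tested.

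In the list of ADP-ribosylation enzymes and hydrolases, 5 of 12 genes fell and 1 rose with DMI (median -0.41), against the direction of the value of Tiparp (0.43). The 12 include the hydrolases Macrod1 and Macrod2. Parp14 fell to 75.2 ± 38.9 CPM in DMI cells, against 144 ± 6.93 CPM in untreated cells (log2 fold change -0.94, adjusted p = 0.0232), and Parp12 to 92.3 ± 27.6 CPM, against 161 ± 7.83 CPM (-0.80, adjusted p = 0.00564, held). Parp9 (-0.59), Parp10 (-0.45) and Parp11 (-0.58) fell as well, and Parp16, an enzyme of the endoplasmic reticulum membrane, rose 1.99-fold. Parp9, Parp10, Parp12 and Parp14 are known as interferon-induced genes. The calls of Parp9, Parp14 and Parp16 were each lost without any 1 of untreated libraries 1 to 3 or DMI libraries 1 and 2. Over all 20 alternatives Parp9 and Parp14 each lost the call in 7, and Parp10 in 14. No gene of this list passed with either flavonoid by edgeR over all 12 libraries. Without library 3 of the induced groups, edgeR called 1 lower with luteolin than with DMI. With quercetin it called 2 higher and 1 lower. DESeq2 called Parp16 lower with quercetin than with DMI (log2 fold change -1.24, adjusted p = 0.00762).

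**Figure D4:**
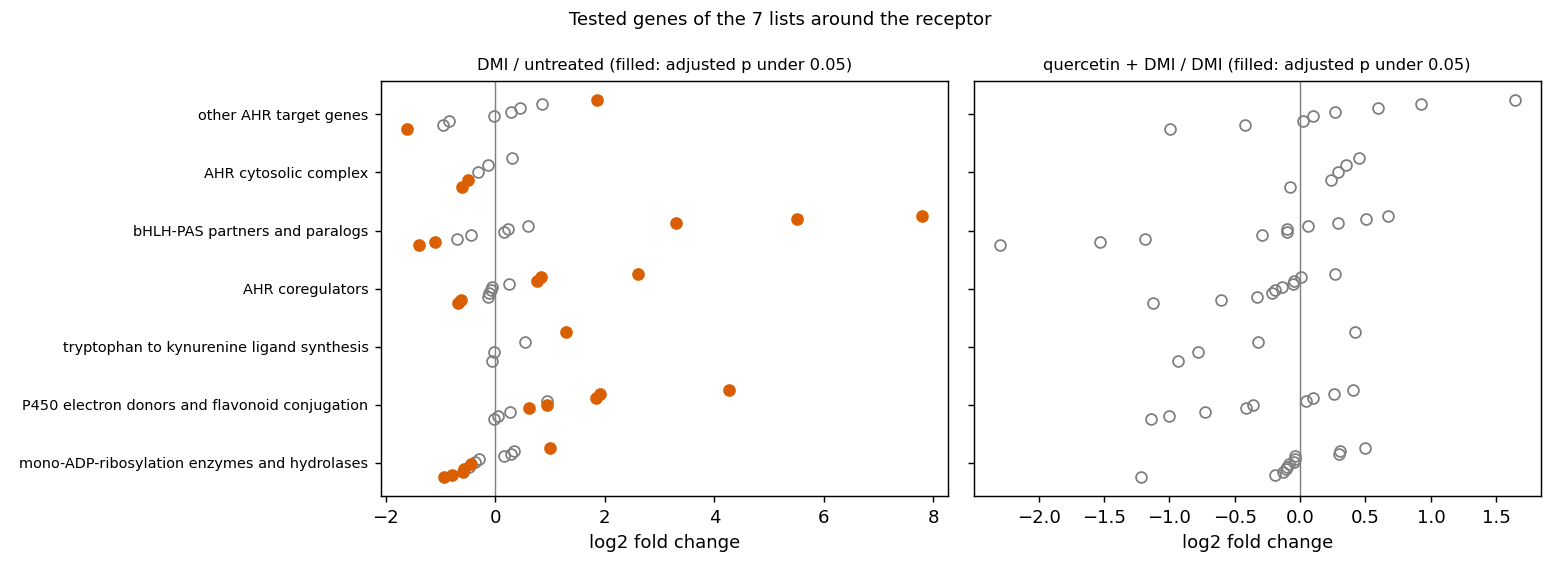
Log2 fold change of every tested gene of the 7 lists (horizontal axes, which differ in scale), for DMI against untreated cells on the left and quercetin with DMI against DMI on the right, with 1 row of points per list; filled points passed the threshold of 0.05 after adjustment over all genes. Filled points, 26, stand only on the left. There the list of P450 electron donors and conjugating enzymes had the highest median (0.94), and that of ADP-ribosylation enzymes and hydrolases the lowest (-0.41).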

How the data were processed

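Raw counts per gene were deposited by the authors for 12 libraries of bulk RNA, made with featureCounts 1.5.0-p3 (CASAVA 1.8.2 is named too), per the submitters' processing notes; neither the aligner nor the strand setting of the counting is stated there, and NEBNext Ultra, the kit of the labels' protocols, leaves strand unmarked. The authors also deposited FPKM values, used here only as an alternative for levels, with gene lengths, which were used per kilobase, and scaled group means, which were not used. Beside the counts the authors deposited a log2 fold change, a p-value and an adjusted p-value per comparison, from a tool not named. Coordinates are printed as GRCm38 although the notes name mm9, because 98.3% of genes have exactly the start and end of GENCODE M21; Cyp1b1 is among the rest.

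Counts were fitted with edgeR 4.0.16 in R 4.3.3 (filterByExpr, TMM, quasi-likelihood test, 1 term per group over 12 libraries, Benjamini-Hochberg over 14855 genes), after the fit had been tested on simulated data. Library totals and a floor of 3 counts set the depth. Alternatives were RLE scaling, library totals, no low-count filter, DESeq2 1.42.0, the replicate block, only the 6 libraries compared, and leaving out libraries; the block within the 6 libraries and relations without quercetin library 3 or without library 3 of each induced group were added after seeing the data. For luteolin and DMI the deviations of libraries with the same number correlated at r = 0.396, 0.478 and 0.711, all over 0.1. However, not every library correlated best with the one of its own number, and the labels do not say what a number marks. All printed fold changes come from the fit without pairing unless the block is named. Elsewhere at least 1 of 3 correlations was under 0.1. All replicate pairs differed by more than counting noise (lowest chi-square per gene 2.68).

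The genes and lists were chosen with earlier results of these data known. Of each list, the text names up to 4 genes that passed, by size, or the 2 most abundant where none passed; genes named beyond that were chosen after their values were seen. Likeness used log2 CPM with a prior count of 2. A few genes that this rule would name are not reported here.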

Additional observations from a re-analysis of the deposited data

How the results depend on the processing

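For DMI against untreated cells, Arnt stayed on its side of the threshold in all 20 alternatives, and the 4 tested genes kept their direction in all 20. Of the 4, 1 passed (Tiparp) under RLE scaling, library totals, no low-count filter, DESeq2, only the 6 libraries compared, and those 6 with a replicate block; 1 passed (Ahr, log2 fold change -0.99, adjusted p = 0.0435) when all 12 libraries were fitted with a replicate block, where same-numbered libraries do not pair (r = 0.0304, -0.0128 and 0.0402); and 3 passed (Ahr, Cyp1b1, Tiparp) without library 3 of each induced group. Leaving out 1 library gave 0 to 1 of the 4, 16 to 32 of the other list genes, and 1865 to 5569 of all genes; without library 3 of the induced groups 7970 of all genes passed.

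For luteolin against DMI, the count of all genes was 363 with no low-count filter, 48 by DESeq2, 25 with the replicate block, 0 with only the 6 libraries, 929 with those 6 and the block, 1566 without library 3, and 0 to 259 without 1 library. Of the 4 genes, 1 (Cyp1b1) passed without library 3 and none without any 1 library; of the other list genes 2, 11 and 7 passed with no filter, without library 3 and with the 6 libraries and the block, and 0 to 2 without 1 library. For quercetin against DMI, all genes numbered 59 with library totals, 1737 with no filter, 984 by DESeq2, 1395 with the replicate block, 0 with the 6 libraries, 706 with those 6 and the block, 5049 without library 3, and 0 to 2646 without 1 library. Of the 4, 1 (Cyp1b1) passed without library 3; of the other list genes 14, 11, 10, 7 and 27 passed with no filter, by DESeq2, with the block, with the 6 and the block, and without library 3, and 0 to 16 without 1 library. Between luteolin and quercetin, all genes numbered 450 with no filter, 3 by DESeq2, 14 with the block, 36 with the 6 libraries and the block, 2081 without library 3, and 0 to 10 without 1 library; other list genes numbered 3 with no filter and 9 without library 3, and none of the 4 passed in any alternative. The replicate block changed no other call of the 4 genes.

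Signs turned only for differences that had not passed. Without 1 library the log2 fold change ran from -0.14 to 0.73 for Ahr and from -0.039 (-0.017 without DMI library 2) to 0.044 for Arnt with luteolin against DMI, and from -0.31 to 1.03 for Ahr and from -0.0084 to 0.25 for Tiparp with quercetin against DMI (-0.00033 without quercetin library 3). Between luteolin and quercetin it ran from -0.61 to 0.55 for Ahr, from -0.12 to 0.0019 for Arnt and from -0.27 to 0.063 for Cyp1b1, each highest without quercetin library 3. Without library 3 of all induced groups it was -0.12 for Tiparp with quercetin against DMI and 0.39 for Ahr between the compounds. The cause of these changes was not tested.

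Depth limits Ahr, Ahrr and Cyp1a1 most, at a floor of 0.152 to 0.206 CPM per library. The authors' FPKM gave the same order of levels, with untreated Cyp1b1 at 63.3 and untreated Arnt at 14.6 per kilobase.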
